A study of Mus musculus with 6 samples.

Results

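The neuregulins and the ErbB receptors are a ligand family and the receptor tyrosine kinases that answer it. The 8 genes described here, Nrg1, Nrg2, Nrg3, Nrg4, Egfr, Erbb2, Erbb3 and Erbb4, were taken by symbol from a table of 18211 genes, and all 8 were found in it. The rule itself is a list of symbols, drawn up with earlier results of these data known. The table holds RNA-seq of oligodendrocyte precursor cells (OPCs), the glial progenitors that give rise to myelinating oligodendrocytes, isolated by Pdgfrα immunopanning from C57BL/6 mice at postnatal day 7. There were 3 wildtype libraries and 3 from NG2-CreERTM:DISC1 exon3 fl/+ mice, called DISC1-Δ3, in which tamoxifen lets Cre remove exon 3 from a single Disc1 allele. Both groups received tamoxifen by gavage on 4 consecutive days, from P4 to P7. The NG2 (Cspg4) promoter, which is active in OPCs and in pericytes, drives the Cre. The controls were mice without CreERT, so Cre and the deletion cannot be told apart in this comparison. Whether a library came from 1 mouse or from a pool was not given. P-values here set the difference between groups against the spread between these libraries.

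Neuregulins carry an EGF-like domain and are mostly made as membrane-anchored precursors that proteases cut free. They bind ErbB3 or ErbB4, which then pair with each other or with ErbB2. ErbB2 has no known ligand of its own and ErbB3 has an impaired kinase, so the family works through pairs. EGFR answers other ligands, among them EGF, TGFα and HB-EGF, the last of which also binds ErbB4. EGFR can pair with ErbB2 as well. In the brain this system is known for its part in glial and interneuron development, and both NRG1 and ERBB4 have been studied as schizophrenia candidate genes.

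Library totals ranged from 13716619 to 16417219 reads, so that 1 read was worth 0.0609 to 0.0729 CPM (counts scaled to library total). Disc1, the targeted gene, had an RPKM (reads per kilobase of transcript, scaled to library total) of 3.51, 3.34 and 3.81 in the wildtype libraries and of 2.86, 2.44 and 2.85 in the DISC1-Δ3 libraries (log2 fold change -0.45, SE 0.088, edgeR adjusted p = 5.28e-04). A count for the whole gene does not show exon 3 itself. Counts of DISC1-Δ3 replicate 3 stood apart from those of its group: chi-square per degree of freedom over genes was 5.24 and 4.98 against replicates 1 and 2, compared with 1.81 to 2.92 for all other pairs of 1 group. Values without this library are given for Erbb4, for Erbin and for some of the pathway lists. All 10 OPC markers were detected in every library, and 7 were higher and 1 lower in DISC1-Δ3, their summed RPKM being 550 to 570 in wildtype and 711 to 741 in DISC1-Δ3. Pdgfra, the receptor used for panning, was at 17.5 ± 0.503 and 25.9 ± 0.915 RPKM (SD, n = 3 each), and Cspg4 was at 15.8 ± 1.38 and 23.0 ± 1.41. Sox10, a transcription factor of the oligodendroglial lineage, was at 34.6 ± 1.61 and 39.4 ± 2.34 RPKM and did not pass the test. The summed RPKM of 10 microglia markers was higher than that of the OPC markers in each library, by 25.7 to 27.2 times in wildtype and by 14.4 times in DISC1-Δ3. All 10 were lower in DISC1-Δ3, with sums of 14655 to 14959 in wildtype and 10226 to 10640 in DISC1-Δ3. Of the other marker lists, neuron, endothelial and pericyte markers had 8 of 10, 3 of 8 and 5 of 6 genes higher and 0 lower, oligodendrocyte markers 0 of 10 higher and 7 lower, and astrocyte markers 1 of 10 higher and 6 lower. Of all 13792 genes tested, 20.4% were higher and 19.5% lower. No marker was at 0 in any library. The part of these shifts in the values below was not tested, and in bulk samples fewer cells of a type and less RNA per cell cannot be told apart.

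Egfr and Erbb2 were the most abundant of the 8 genes. The 250 bases upstream of their start sites are shown because these are the genes that made up most of the receptor transcripts and whose shares of them did not overlap between groups. Neither share difference passed its test (exact permutation, adjusted p = 0.2 for each), and the shares are not independent. The sequences are from RefSeq, assembly GRCm38.p6, read on the gene's strand, and capitals mark the GC box GGGCGG, a binding motif of Sp factors, searched on both strands. It appeared once upstream of Egfr, as its reverse complement, and not in the Erbb2 window. Among all 32851 promoters of this length, 32.7% held it.
Egfr, chr11:16751953-16752202, plus strand: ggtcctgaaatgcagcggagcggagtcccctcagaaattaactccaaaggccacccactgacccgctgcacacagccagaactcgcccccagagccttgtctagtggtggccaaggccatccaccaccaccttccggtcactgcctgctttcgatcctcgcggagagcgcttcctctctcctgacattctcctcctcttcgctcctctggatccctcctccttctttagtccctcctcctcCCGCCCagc
Erbb2, chr11:98412234-98412483, plus strand: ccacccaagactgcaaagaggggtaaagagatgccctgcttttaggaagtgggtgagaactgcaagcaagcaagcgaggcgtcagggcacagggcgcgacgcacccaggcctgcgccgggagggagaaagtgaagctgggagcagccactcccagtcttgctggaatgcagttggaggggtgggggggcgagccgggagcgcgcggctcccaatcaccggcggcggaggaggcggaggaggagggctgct

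Both windows were rich in G and C, with 60.8% and 66.0% against a median of 52.4% over all promoters, and held 11 and 16 CG dinucleotides. RefSeq windows for 3 further genes were matched. The window of Nrg3 was at 72.4% GC with 27 CG dinucleotides, that of Erbb4 at 54.0% with 12, and that of Nrg4 at 53.2% with 10. The core motif of TCF/LEF factors, CTTTGA, was searched on both strands as well. It was found once upstream of Nrg4 and in none of the other 4 windows, while 13.8% of all promoters held it. No window was matched for Nrg1, Nrg2 and Erbb3.

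Levels were set side by side on the RPKM scale, which is per length. In wildtype the order of mean RPKM was Egfr (10.9), Erbb2 (3.92), Erbb4 (1.22), Nrg1 (0.823), Nrg2 (0.667), Erbb3 (0.403), Nrg4 (0.287) and Nrg3 (0.237). Neighbours in this order were separated in every library except for Erbb3 and Nrg4, and Nrg4 and Nrg3, whose ranges overlapped. In DISC1-Δ3 the order was Egfr (10.2), Erbb2 (4.64), Nrg2 (1.17), Nrg1 (1.16), Erbb4 (1.11), Erbb3 (0.430), Nrg3 (0.410) and Nrg4 (0.290). There Nrg2, Nrg1 and Erbb4 overlapped with their neighbours, as did Erbb3, Nrg3 and Nrg4.

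**Figure D1:**
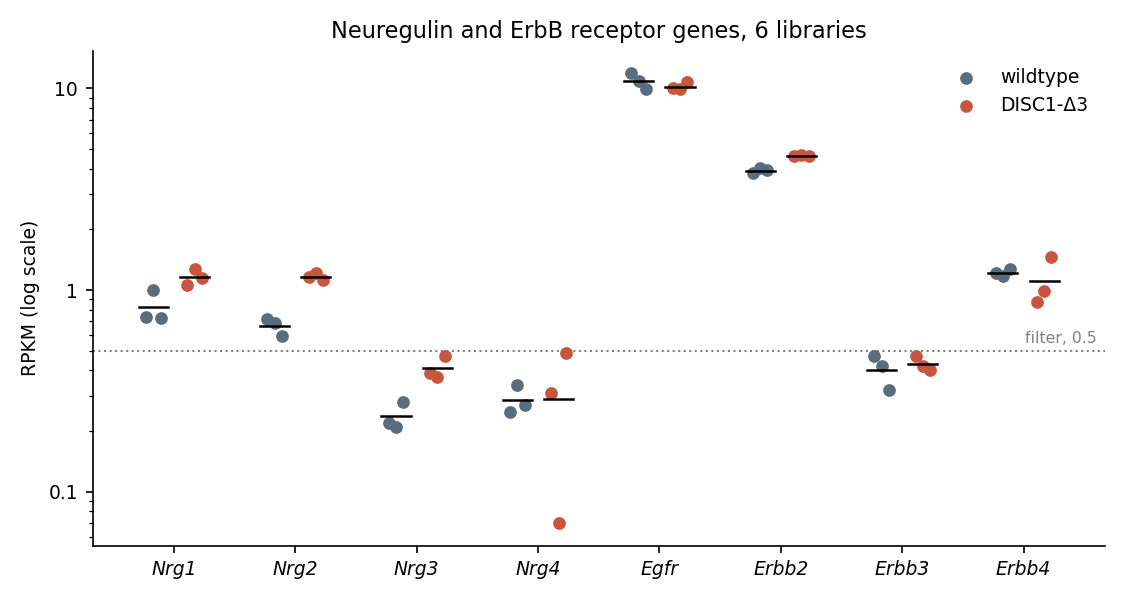
RPKM of the 8 genes on a log axis, 1 point per library, wildtype in grey and DISC1-Δ3 in red, with a line at each group mean and a dotted line at the filter of 0.5 RPKM. Egfr and Erbb2 lie above the other 6 genes in every library, and Nrg3, Nrg4 and Erbb3 stay under the filter. Nrg1, Nrg2, Nrg3 and Erbb2 have no overlap between groups in RPKM. The same holds for 52.0% of all tested genes, and for 22.8% of genes under the filter with a mean of at least 3 reads.

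Genes were tested where RPKM reached 0.5 in at least 3 of the 6 libraries. Of the 8 genes, 5 passed (Nrg1, Nrg2, Egfr, Erbb2 and Erbb4), each in all 6 libraries, so none passed through 1 group only. In edgeR's quasi-likelihood test on read counts, Nrg2 was higher and Egfr lower in DISC1-Δ3, and Nrg1, Erbb2 and Erbb4 did not pass. That is 2 of 5 genes called (40.0%), beside 39.9% of all 13792 tested genes, with 20.4% higher and 19.5% lower. The share among the members was thus close to the background. The median log2 fold change was -0.09 over the 5 genes and 0.0075 over all tested genes.

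**Figure D2:**
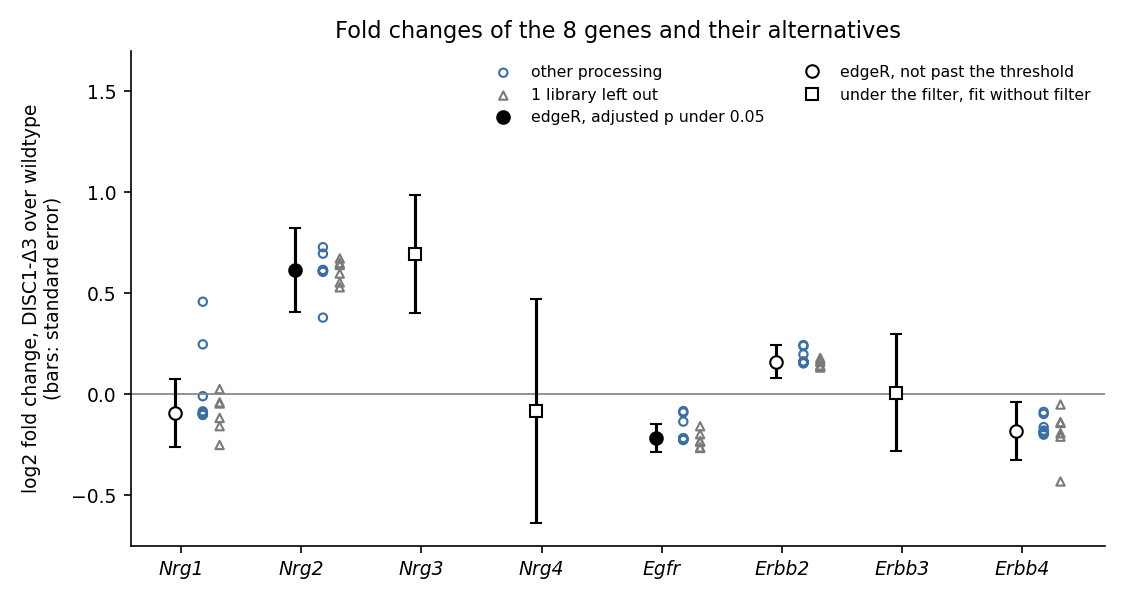
Log2 fold change of each gene, DISC1-Δ3 over wildtype, with its standard error, beside the values under other processing (blue circles) and with 1 library left out (grey triangles). Nrg2 at 0.61 and Egfr at -0.22 are filled, Nrg1 lies on both sides of 0 depending on the processing, and squares show the 3 genes under the filter.

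Nrg2, a neuregulin that binds ErbB3 and ErbB4, was the only member that rose in the test. It was covered by 30, 34 and 29 reads in wildtype, compared with 46, 55 and 50 in DISC1-Δ3. Its RPKM was 0.72, 0.69 and 0.59 in wildtype, compared with 1.16, 1.22 and 1.12 in DISC1-Δ3. Every DISC1-Δ3 library was above every wildtype library, also in TMM-scaled CPM, where 2.07 ± 0.218 stood against 3.16 ± 0.179 (SD, n = 3 each). Groups that did not overlap were frequent among all tested genes, at 52.0% in RPKM and 49.6% in CPM. The fitted change was 1.53-fold (log2 fold change 0.61, SE 0.21, edgeR adjusted p = 0.0251). With so few reads the call was not firm. It was lost in DESeq2 (log2 fold change 0.61, adjusted p = 0.106) and when wildtype replicate 2 (adjusted p = 0.0566), wildtype replicate 3 (0.0933), DISC1-Δ3 replicate 1 (0.0610) or DISC1-Δ3 replicate 2 (0.0886) was left out, while the direction held throughout. The gene spans chr18:36017652-36197380 on the minus strand (GRCm38, GENCODE M21), with no exon of another gene over its own.

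Nrg1, the ligand of ErbB3 and ErbB4 best known for its control of Schwann cells, gave different answers on the 2 scales of the table. Its RPKM was 0.74, 1.0 and 0.73 in wildtype, compared with 1.06, 1.27 and 1.15 in DISC1-Δ3, with all DISC1-Δ3 libraries above all wildtype libraries. Its reads were 84, 107 and 72 in wildtype, compared with 72, 91 and 99 in DISC1-Δ3, and their sums were 263 and 262. On TMM-scaled CPM the groups overlapped, at 5.85 ± 1.16 and 5.46 ± 0.485 (SD, n = 3 each). The edgeR log2 fold change was -0.09 (SE 0.17, adjusted p = 0.698), whereas limma gave 0.25 on log2(RPKM + 1) (adjusted p = 0.0724) and 0.46 on log2(RPKM + 0.1) (adjusted p = 0.0786). Neither scale gave a change past the threshold, and they disagreed in sign. In the edgeR fit the sign also turned, to 0.03, without wildtype replicate 2.

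The distance between these scales can be read in part as a length. Another part is scaling: with library totals in place of TMM factors the Nrg1 edgeR log2 fold change was -0.01. Since RPKM divides reads by transcript length and library total, each pair of values implies the length that was used, and this was computed after the values were seen. For Nrg1 it was 8276, 6518 and 6027 bases in wildtype and 4773, 4440 and 5341 bases in DISC1-Δ3. The means were 6940 ± 1182 and 4852 ± 456 bases (SD, n = 3 each), a log2 ratio of -0.51 (SE 0.14, limma adjusted p = 0.705 over 12897 genes). No wildtype library overlapped a DISC1-Δ3 library, which was so for 8.71% of genes in this measure. Only 3 of the 12897 genes (0.0233%) had a ratio of 0.5 or more in size, Nrg1 among them, only just past that limit. With a library left out its ratio ran from -0.60 to -0.37, and it was under the limit without wildtype replicate 1 (-0.37), DISC1-Δ3 replicate 1 (-0.498) or DISC1-Δ3 replicate 2 (-0.45). No gene passed the adjusted threshold in this limma fit, with 731 (5.67%) at an unadjusted p under 0.05.

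Nrg1 is a gene of many promoters and spliced forms. It spans chr8:31814551-32884029 on the minus strand, and GENCODE M21 lists 18 transcripts, of which 12 protein-coding ones measure 407 to 5415 bases. The implied length was above the longest of them in all 3 wildtype libraries, and below it in all 3 DISC1-Δ3 libraries. The annotation behind the deposited lengths is not given in the sources used here, reads were single-end of 50 bases, and no value per transcript was analysed here. An exon also overlaps Gm26578 on the opposite strand. For Nrg2 the implied length differed far less, at 3014 ± 20.3 and 2783 ± 12.1 bases (log2 ratio -0.11, SE 0.0084, limma adjusted p = 0.125), and the groups did not overlap. The Nrg2 ratio of mean RPKM was 1.75, which differs from the fitted fold in length and in scaling: with library totals the edgeR log2 fold change was 0.70.

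**Figure D3:**
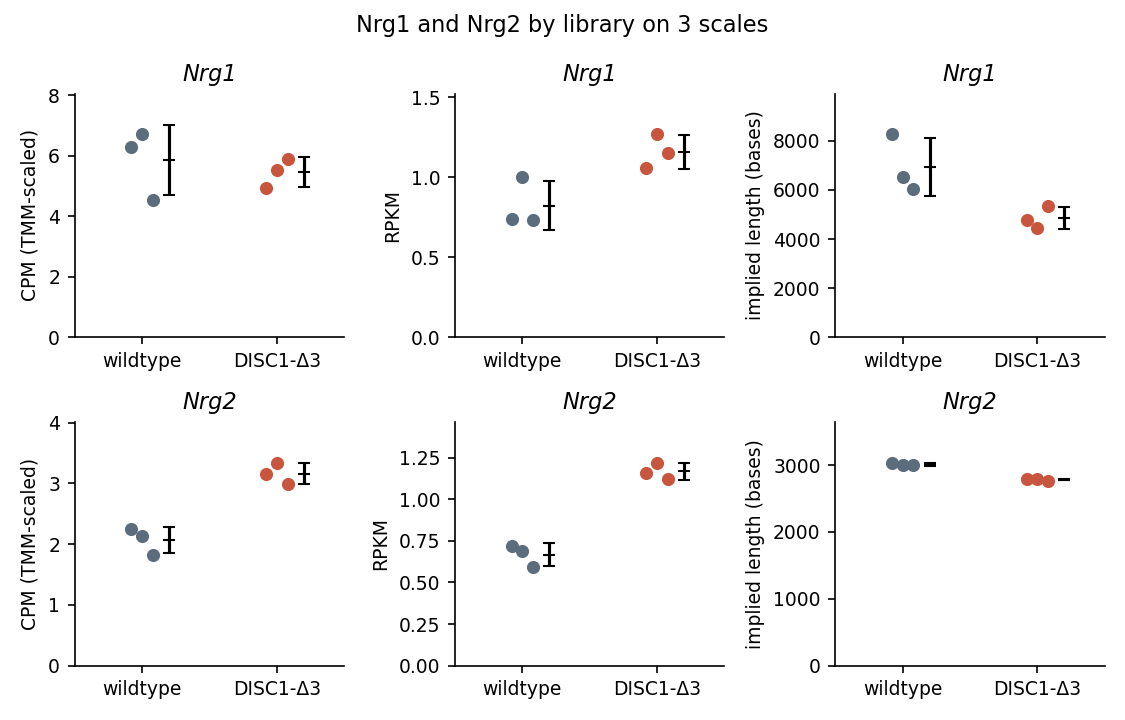
Nrg1 (top) and Nrg2 (bottom) by library as TMM-scaled CPM, RPKM and implied transcript length in bases, with mean and SD of 3 libraries beside the points. Nrg1 groups overlap in CPM but not in RPKM or in length, and Nrg2 groups are apart on all 3 scales.

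Nrg3 and Nrg4, both ligands of ErbB4, were close to the limit of detection. Nrg3 had 16, 18 and 20 reads in wildtype, compared with 28, 27 and 38 in DISC1-Δ3, or 0.237 ± 0.0379 and 0.410 ± 0.0529 RPKM (SD, n = 3 each). All its DISC1-Δ3 libraries were above all wildtype libraries, which held for 22.8% of the genes under the filter with a mean of at least 3 reads. In an edgeR fit without a filter, where 31.7% of 18172 genes were called, its log2 fold change was 0.69 (SE 0.29, adjusted p = 0.0664). Nrg4 had 6, 10 and 8 reads in wildtype, compared with 8, 2 and 14 in DISC1-Δ3. Its groups overlapped (log2 fold change -0.08, SE 0.55, adjusted p = 0.933 in the same edgeR fit), and a change was not detectable at this depth. Its exons overlap those of Fbxo22 and Gm15625 on the opposite strand, and the library preparation as described does not mark the strand.

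Added over the 4 ligands, neuregulin RPKM was 1.93, 2.24 and 1.87 in wildtype, compared with 2.92, 2.93 and 3.23 in DISC1-Δ3. The sum was higher in each DISC1-Δ3 library, at 3.03 ± 0.176 against 2.01 ± 0.199 (SD, n = 3 each, difference 1.01, exact permutation test, two-sided p = 0.1). With 3 libraries against 3, 0.1 is the smallest p that this test can give, and over the 6 sums and shares tested in this way it becomes 0.2 after Benjamini-Hochberg adjustment. Part of the difference in the sum is that of Nrg1, whose reads added up to 263 and 262.

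Egfr, the receptor of EGF, TGFα and HB-EGF, was the most abundant member. Its RPKM was 11.89, 10.91 and 9.94 in wildtype, compared with 10.08, 9.88 and 10.70 in DISC1-Δ3, and the groups overlapped. Its TMM-scaled CPM was 62.3, 56.4 and 53.7 in wildtype, compared with 49.3, 46.7 and 51.9 in DISC1-Δ3, without overlap. In CPM this held for 49.6% of all tested genes. The fitted level fell by 14.1% (log2 fold change -0.22, SE 0.069, edgeR adjusted p = 0.0173). The call depended on the scaling and on single libraries: with library totals in place of TMM factors the log2 fold change was -0.14 (adjusted p = 0.134), without wildtype replicate 1 it was -0.16 (adjusted p = 0.104) and without DISC1-Δ3 replicate 2 it was -0.20 (adjusted p = 0.0528). The call was also lost in limma, with -0.08 on log2(RPKM + 1) (adjusted p = 0.390) and -0.09 on log2(RPKM + 0.1) (adjusted p = 0.387). Egfr lies at chr11:16752203-16918158 on the plus strand and shares no exon with another gene.

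Erbb2, the ligand-less partner in many receptor pairs, had tight groups. Its RPKM was 3.82, 4.01 and 3.92 in wildtype, compared with 4.63, 4.67 and 4.61 in DISC1-Δ3, from 254 to 366 reads per library. Every DISC1-Δ3 library was above every wildtype library, in RPKM and in CPM. Groups without overlap made up 52.0% of all tested genes in RPKM and 49.6% in CPM. The fitted log2 fold change of 0.16 (SE 0.082) missed the threshold (edgeR adjusted p = 0.132), and passed it with library totals in place of TMM factors (0.24, adjusted p = 0.0238). The gene lies at chr11:98412470-98437716 on the plus strand. One of its exons overlaps Mien1 on the opposite strand, so reads of the 2 genes cannot be told apart there.

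Erbb4, the neuregulin receptor with a fully active kinase, differed between the mutant libraries. Its RPKM was 1.22, 1.18 and 1.27 in wildtype, compared with 0.87, 0.99 and 1.46 in DISC1-Δ3. In the mutant, replicates 1 and 2 were below all wildtype libraries and replicate 3 was above them. Over all 6 libraries the log2 fold change was -0.18 (SE 0.14, edgeR adjusted p = 0.338). Without DISC1-Δ3 replicate 3, the library that stood apart, it was -0.43 (SE 0.11, adjusted p = 0.00231), and without DISC1-Δ3 replicate 1 it was -0.05. Erbb4 thus kept its direction, and of all alternatives run it passed the threshold only without DISC1-Δ3 replicate 3. Its position is chr1:68032186-69108059 on the minus strand.

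Erbb3, the kinase-impaired neuregulin receptor, was low in all libraries, with 25, 27 and 20 reads in wildtype, compared with 26, 26 and 25 in DISC1-Δ3. These are 0.32 to 0.47 RPKM and 0.40 to 0.47 RPKM, and the groups overlapped. In the edgeR fit without a filter the log2 fold change was 0.01 (SE 0.29, adjusted p = 0.984), and at this depth no change was detectable. Erbb3 lies at chr10:128567523-128589652 on the minus strand.

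The make-up of the receptor transcripts was compared as each gene's percentage of the summed RPKM of the 4 receptors. That sum was 16.5 ± 0.977 in wildtype and 16.4 ± 0.674 in DISC1-Δ3 (SD, n = 3 each, exact permutation p = 1). Egfr made up 68.3%, 66.0% and 64.3% of it in wildtype, compared with 62.8%, 61.9% and 62.3% in DISC1-Δ3. Erbb2 made up 22.0%, 24.3% and 25.4% in wildtype, compared with 28.8%, 29.3% and 26.8% in DISC1-Δ3. Neither overlapped between groups: DISC1-Δ3 minus wildtype, the Egfr share differed by -3.89 and the Erbb2 share by 4.45 percentage points, each with an exact two-sided permutation p = 0.1, the smallest possible, and 0.2 after adjustment over the 6 tests. Shares add up to a whole, so these differences are not independent of each other. The Erbb4 share was 7.46% ± 0.663 and 6.71% ± 1.60 (SD, n = 3 each), and the Erbb3 share 2.44% ± 0.328 and 2.63% ± 0.299, with an exact permutation p = 0.5 for both. With Egfr left out of the sum the Erbb3 difference changed its sign, from 0.192 to -0.287 points.

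**Figure D4:**
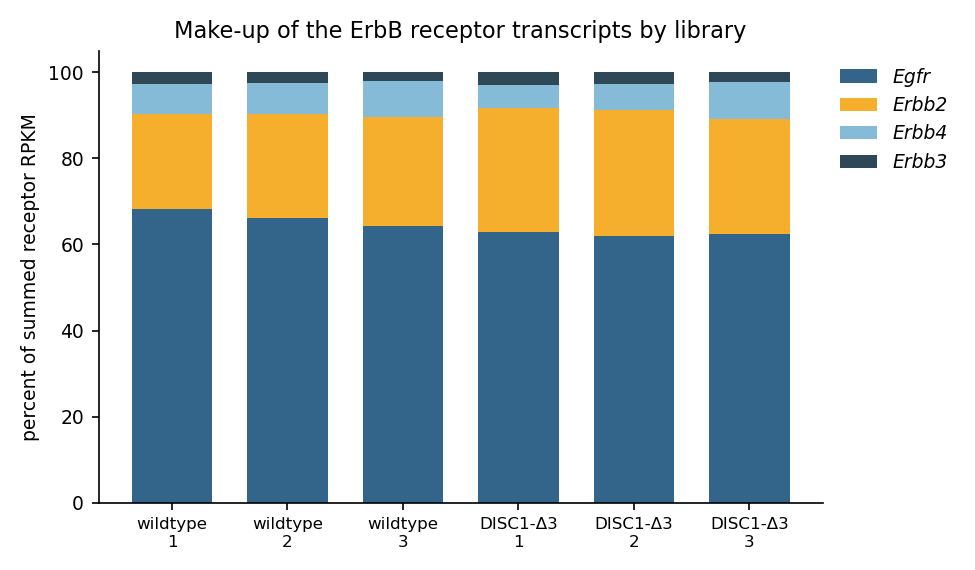
Stacked percentages of the summed RPKM of the 4 ErbB receptors in each of the 6 libraries. Egfr takes 64.3% to 68.3% in wildtype and 61.9% to 62.8% in DISC1-Δ3, and Erbb2 22.0% to 25.4% and 26.8% to 29.3%.

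Another 71 genes of the pathway were read in the same edgeR fit, from lists written by role, with earlier results of these data known. Of these, 65 were tested, and 14 were higher and 16 lower in DISC1-Δ3 (46.2% called, beside 39.9% of all tested genes), with a median log2 fold change of -0.01. This split depended on the scaling: with library totals it was 23 higher and 6 lower, and without wildtype replicate 1 only 9 were lower. With them, the median over the 13792 tested genes was 0.09 in place of 0.0075.

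Among the other ligands of the EGF family, 2 of 7 were tested. Of these, 1 was higher (50.0% called, beside 39.9% of all tested genes). Hbegf, which encodes the EGFR and ErbB4 ligand HB-EGF, was at 22.4, 22.4 and 22.1 RPKM in wildtype, compared with 28.1, 28.4 and 30.4 in DISC1-Δ3 (log2 fold change 0.30, SE 0.058, adjusted p = 5.83e-04). In RPKM it was well above all 4 neuregulins. Tgfa, which encodes the EGFR ligand TGFα, was at 20.7, 20.2 and 19.6 RPKM in the wildtype libraries. In the DISC1-Δ3 libraries it was between 22.8 and 23.9 RPKM, without overlap, which held for 52.0% of all tested genes. Tgfa just missed the threshold (log2 fold change 0.13, SE 0.049, edgeR adjusted p = 0.0513), and both tested ligands were higher with library totals, with a filter at RPKM 1 and in both limma fits. Egf, Btc, Areg, Ereg and Epgn were under the filter.

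Of 11 genes that process these ligands, 1 was higher and 3 were lower (36.4% called, beside 39.9% of all tested genes). The counts were 2 and 5 without DISC1-Δ3 replicate 3, 2 and 1 with library totals, and 1 and 2 without wildtype replicate 1, wildtype replicate 2 or DISC1-Δ3 replicate 1. Adam17, the protease that sheds many EGF-family ligands, fell from 17.9 ± 0.442 to 14.7 ± 0.640 RPKM (SD, n = 3 each, log2 fold change -0.36, SE 0.055, adjusted p = 4.21e-05). Rhbdf2, which encodes the iRhom2 protein that carries ADAM17 to the cell surface, rose from 8.10 ± 0.358 to 10.8 ± 0.112 RPKM (log2 fold change 0.36, SE 0.072, adjusted p = 7.08e-04). Adam10, another sheddase, and Timp3, a metalloproteinase inhibitor, were lower by small amounts (log2 fold changes -0.18 and -0.17). Neither call held with library totals or in either limma fit. The Adam10 call was also lost with any single library left out except DISC1-Δ3 replicate 3, whereas the Timp3 call held in all of these fits. Bace1, which cuts the Nrg1 precursor, did not pass (log2 fold change 0.17, adjusted p = 0.104) but passed in some settings, for example without DISC1-Δ3 replicate 3 (0.20, adjusted p = 0.0314).

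Adaptors and Ras-MAPK transducers were mostly within the range of all genes, with 4 of 25 tested genes higher and 3 lower. This split also moved with the processing, to 10 higher and 1 lower with library totals, 9 and 1 in limma on log2(RPKM + 1), and 7 and 5 without DISC1-Δ3 replicate 3. Without wildtype replicate 2 it was 2 and 2, and without DISC1-Δ3 replicate 1 it was 2 and 4. Gab2, a docking protein, fell from 19.0 ± 0.339 to 13.4 ± 0.366 RPKM (SD, n = 3 each, log2 fold change -0.59, SE 0.050, adjusted p = 3.35e-08). Nck2, an adaptor that links receptors to the actin cytoskeleton, rose from 3.15 ± 0.255 to 5.21 ± 0.331 RPKM (log2 fold change 0.64, SE 0.11, adjusted p = 2.16e-04). Src (0.18), a tyrosine kinase, was higher and Mapk3 (-0.14) and Grb2 (-0.13) were lower by small log2 fold changes. With library totals neither Grb2 (-0.05, adjusted p = 0.351) nor Mapk3 remained past the threshold. The Grb2 call was also lost in both limma fits and without wildtype replicate 1 or 3, and the Src call without wildtype replicate 2 or DISC1-Δ3 replicate 1. Shc1, which joins the receptors to Grb2, did not pass (log2 fold change -0.11, adjusted p = 0.202).

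Of 13 genes listed for the restraint or turnover of ErbB receptors, 2 were higher and 7 lower, with a median log2 fold change of -0.20. That is 69.2% called, beside 39.9% of all tested genes. The list was not sorted by whether a gene lowers or spares the receptors. Those lower included Lrig3 (-0.42), Lrig2 (-0.37), Erbin (-0.36) and Cbl, a ubiquitin ligase for EGFR (-0.35, SE 0.060, adjusted p = 1.35e-04). Those higher were Nedd4 (0.22) and Rnf41 (0.19), both ubiquitin ligases, the second acting on ErbB3. Lrig1, which promotes turnover of ErbB receptors, was the most abundant of the Lrig genes at 65.9 ± 3.82 and 69.4 ± 1.69 RPKM (SD, n = 3 each) and its log2 fold change was -0.00026 (adjusted p = 0.998). Errfi1, an inhibitor of the EGFR kinase, did not pass either (0.05, adjusted p = 0.647). The count of 7 lower genes shrank to 2 with library totals, to 4 in DESeq2 and to 3 without wildtype replicate 1, and was 0 in limma on log2(RPKM + 1). In Erbin, which encodes a binding partner of ErbB2, the library that stood apart was the high one: RPKM was 8.63, 8.90 and 13.0 in DISC1-Δ3 replicates 1 to 3 against 11.7 to 12.8 in wildtype. Its log2 fold change without that library was -0.57 (edgeR adjusted p = 8.11e-09). The calls of Erbin and Lrig3 were lost with library totals, in DESeq2, in both limma fits and without wildtype replicate 1, those of Lrig2 and Cbl in both limma fits, and that of Rnf41 without wildtype replicate 3 or DISC1-Δ3 replicate 1.

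Feedback genes that MAPK activity is known to induce held the largest changes of the pathway, in both directions. Of 14 tested, 6 were higher and 3 lower (64.3% called, beside 39.9% of all tested genes). Spry4 and Spry2, Sprouty inhibitors of receptor signalling, rose. Spry4 was at 2.10, 1.48 and 1.64 RPKM in wildtype, compared with 3.60, 3.45 and 4.26 in DISC1-Δ3 (log2 fold change 1.05, SE 0.13, adjusted p = 4.50e-06). Spry2 went from 15.0 to 24.4 RPKM on average (0.63, SE 0.079, adjusted p = 5.31e-06). Phlda1 was at 14.7, 18.3 and 16.9 RPKM in wildtype, compared with 30.8, 37.1 and 36.6 in DISC1-Δ3 (0.98, SE 0.085, adjusted p = 5.47e-08). By contrast, Ier3, an immediate-early gene, fell from 151, 164 and 167 RPKM to 94.2, 101 and 99.6 (-0.79, SE 0.053, adjusted p = 1.86e-09). Dusp6, the phosphatase of ERK, fell from 62.6 ± 0.544 to 47.5 ± 2.03 RPKM (SD, n = 3 each, -0.48, SE 0.045, adjusted p = 1.55e-07). Spred1 was lower by a small amount (-0.16, adjusted p = 0.0336). The median of the 14 was 0.07 on the log2 scale, and 6 genes were counted as higher with library totals, in DESeq2 and in limma as well. The count of 3 lower genes became 2 with library totals and in both limma fits. It was also 2 without wildtype replicate 1 or 3 or DISC1-Δ3 replicate 1 or 2, and 4 without DISC1-Δ3 replicate 3. Of the 19 pathway genes past the threshold that the naming rule gave, 10 stayed past it in every alternative run, among them Hbegf, Adam17, Rhbdf2, Nck2, Gab2, Spry4, Spry2, Phlda1 and Ier3.

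**Figure D5:**
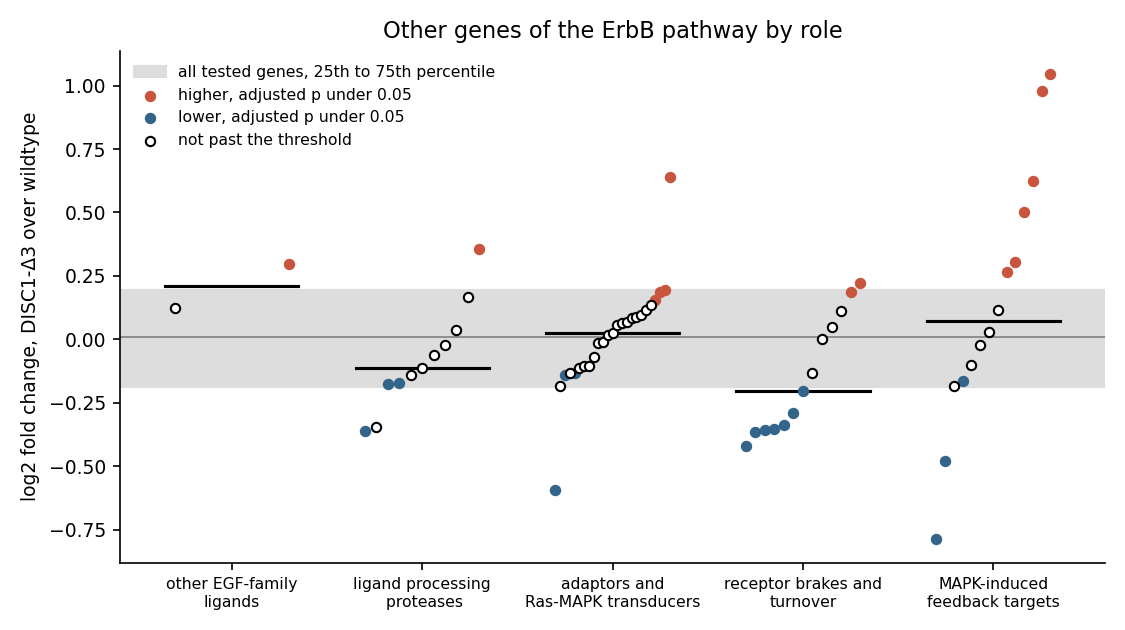
Log2 fold change of the 65 tested pathway genes by role, red for higher, blue for lower and open for genes not past the threshold, with a bar at each list's median and a grey band for the middle range of all tested genes. Spry4 at 1.05 and Phlda1 at 0.98 lie highest and Ier3 at -0.79 lowest.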

How the data were processed

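RNA-seq reads were processed by the authors with Bowtie2 2.2.5 and mm10 named in the submitters' processing notes. The counting tool is not given in the sources used here. The authors deposited 1 table with an expected count per gene and library, of which 90.2% of values above 0 are whole, and the authors' RPKM, given to 2 decimals. The 4 columns of group averages made by the authors were not used. Expected counts were rounded and fitted in edgeR 4.0.16 (R 4.3.3, quasi-likelihood test, TMM scaling, 2 groups of 3) over 13792 genes with RPKM of at least 0.5 in at least 3 libraries. P-values are two-sided and Benjamini-Hochberg adjusted over these genes, and 0.05 was the threshold. Differences of shares were tested by exact permutation of libraries (scipy 1.17.1). Alternatives were DESeq2 1.42.0, limma 3.58.1 on log2(RPKM + 1) or log2(RPKM + 0.1), other scalings and filters, the replicate number as a block, and each library left out in turn. A fold change on the log2(RPKM + 1) scale understates the change of low genes.

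Implied length was the expected count, not rounded, divided by RPKM and library total. It was computed for 12897 genes with at least 0.5 RPKM and 10 reads in all 6 libraries, and log2 lengths were fitted in limma. This step was added after seeing the data, as were the values without the library that stood apart.

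The members and gene lists were chosen with earlier results of these data known. All 8 members are named, with the up to 4 genes past the threshold of largest log2 fold change in each pathway list and Grb2, Shc1, Adam17, Bace1, Errfi1, Lrig1 and Rnf41. In the closing section, each tested member is given the gene with the most similar profile. Some genes that this would name are not reported here. Mapk3, Nedd4, Dusp6, Spred1 and Tgfa were added after their values were seen, and so were the genes that were named as under the filter. In counts simulated for the 13792 genes, with 200 changed, edgeR recovered 185 (92.5%) among 187 calls. Most of the planted changes were larger than those of the members, and all genes had the same dispersion (extra spread between libraries). The share recovered thus does not apply to changes as small as those of Egfr or Erbb2.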

Additional observations from a re-analysis of the deposited data

How the results depend on the processing

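Over 561 alternative values, 479 were sorted as the same. For fold changes this meant the same direction and side of the threshold, while counts and shares could still differ in size. Counts sorted so included 21 higher pathway genes in both limma fits against 14, and 22 lower without DISC1-Δ3 replicate 3 against 16. Among the 8 genes, the 1 higher gene became 2 with library totals and 0 in DESeq2, and 0 to 1 with a library left out (0 without wildtype replicate 2 or 3 or DISC1-Δ3 replicate 1 or 2). The 1 lower gene became 0 with library totals and in both limma fits, and 0 to 2 with a library left out (0 without wildtype replicate 1 or DISC1-Δ3 replicate 2, and 2 without DISC1-Δ3 replicate 3). Pathway genes went from 14 higher and 16 lower to 23 and 6 with library totals and to 21 and 4 in limma with either pseudocount. With a library left out they went to 11 to 19 higher and 9 to 22 lower, the 9 being without wildtype replicate 1. With library totals 69.2% of calls over all genes were higher, compared with 51.1%, and the same share was found in limma on RPKM. The Erbb3 share difference was -0.287 points without Egfr. Nrg1 turned to 0.25 and 0.46 in limma on RPKM and ranged from -0.25 to 0.0251 with a library left out. Values close to 0 also turned: Errfi1 ranged from -0.0567 to 0.0887 with a library left out (-0.0567 without DISC1-Δ3 replicate 3). Lrig1 was 0.0822 with library totals, 0.0011 with a filter at RPKM 1, 0.0744 and 0.0754 in limma, 0.00042 with the replicate number as a block, and -0.0404 to 0.0448 with a library left out. The Erbb2 length ratio was -0.00050 to 0.0015. The causes were not tested.

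Replicate numbers did not pair the libraries, with correlations of deviations of 0.0409, 0.0445 and 0.00414 for the 3 numbers. With the number as a block, Nrg2 (0.61, adjusted p = 0.0375) and Egfr (-0.22, adjusted p = 0.0252) stayed past the threshold in edgeR, and 5429 genes were called, compared with 5498. Depth limits Nrg3, Nrg4 and Erbb3, with 2 to 38 reads per library.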

Other observations

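For each tested member, 1 other gene had the most similar profile over the 6 libraries, measured as the root mean square difference of centred log2 CPM. It was E430018J23Rik for Nrg1 (0.0418), Wrnip1 for Nrg2 (0.0487), Zcchc2 for Egfr (0.0153), Cry1 for Erbb2 (0.0151) and Atad2b for Erbb4 (0.0436). The members' own root mean square deviations were 0.194, 0.319, 0.134, 0.0850 and 0.252. Erbb3, Nrg3 and Nrg4 were not compared, being under the filter.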
